A study of Homo sapiens with 42 samples.

Results

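GABARAPL1, ATG9B, WIPI1, SQSTM1 and LAMP3 are 5 genes of autophagy and the lysosome whose messenger RNA was higher with statins than without in 2 human pancreatic cancer cell lines. They are 5 of the 8738 genes in the deposited table and were matched by symbol. They were selected on their measured differences from the control, so those differences, and the changes with dose, are given here as descriptions with no test. Differences between statins at the same dose, the baseline difference between the lines and the other genes of the pathway were tested, since the rule did not use those contrasts. The statin and control libraries behind those tests also entered the contrasts that chose the 5 genes, so the tests are not independent of the choice. The genes and lists were also chosen with earlier results of these data known.

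In autophagy a double membrane closes around cytoplasm or a chosen cargo, and the finished autophagosome fuses with a lysosome that digests it. ATG9 proteins bring membrane to the growing structure, WIPI proteins bind the lipid that marks it, and proteins of the ATG8 family such as GABARAPL1 are attached to it and bind receptors that carry cargo. SQSTM1, also called p62, is such a receptor and is itself digested, while LAMP3 lies in the lysosomal membrane. Statins inhibit HMG-CoA reductase, which makes mevalonate, from which cells build cholesterol and the lipid tails that anchor many small GTPases.

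PANC-1 and MiaPaCa-2 are established lines from human pancreatic carcinomas, and each was treated at 2 or 20 µM with 1 of 3 statins, fluvastatin, lovastatin or simvastatin, or belonged to the control. Fluvastatin is fully synthetic, whereas lovastatin and simvastatin are lactones of fungal origin, of which simvastatin carries an added methyl group on its side chain ester. The titles give 14 groups of 3 libraries, and the labels give no difference in genotype within a line. The sources used here give neither the length of treatment nor the vehicle of the controls. Nothing says that replicates were separate cultures, so every SD and p-value reflects variation among these libraries alone, which may be technical. Because each library pools many cells, fewer cells of a type and less RNA per cell cannot be told apart.

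Some columns stood apart before any comparison was made. The columns labelled MiaPaCa-2 control 3 and MiaPaCa-2 lovastatin 20 µM 3 were weighted sums of other columns and were not used as replicates, which left n = 2 in those groups, n = 3 elsewhere and 40 independent libraries. The library labelled PANC-1 control 3 held transcripts typical of MiaPaCa-2: of 43 genes over 5 FPKM in MiaPaCa-2 and under 1 FPKM in the other PANC-1 libraries, 30 exceeded 1 FPKM there, at a median of 19.7% of the MiaPaCa-2 control level. The set was rebuilt for each library, and in the other 39 it held 13 to 15 genes in PANC-1 and 73 to 82 in MiaPaCa-2. Of these, 0 to 9 genes exceeded 1 FPKM, with medians of at most 3.18%. That was at most 13.3% of a set, against 69.8% in PANC-1 control 3. PANC-1 simvastatin 20 µM replicate 3 had a mean correlation of 0.968 with its own group, against 0.978 and 0.979 for its partners, and the statin pairs it enters in PANC-1 are given with and without it. Of 6 epithelial markers 5 were in the table, and KRT8, KRT18 and KRT19 lay between 132 and 663 FPKM in all 40 libraries. Within that range KRT8 and KRT18 fell with all 3 statins at both doses in both lines (limma, adjusted p at most 0.0259), at 20 µM in MiaPaCa-2 by a mean over the statins of -0.99 and -1.29 on the log2(FPKM + 1) scale, while KRT19 rose there by 0.73 to 1.57. The summed level of the 5 epithelial markers was 1291 to 1493 FPKM in the control, 1153 to 1286 FPKM at 2 µM and 1185 to 1300 FPKM at 20 µM in PANC-1, and 1115 to 1150 FPKM in the control, 897 to 1066 FPKM at 2 µM and 737 to 850 FPKM at 20 µM in MiaPaCa-2. EPCAM had a median of 58.4 FPKM in PANC-1 and 0.825 FPKM in MiaPaCa-2, and CDH1 had 34.9 FPKM in PANC-1 and 0.490 FPKM in MiaPaCa-2. In PANC-1 at 20 µM, 2 of the 5 epithelial markers were called higher with all 3 statins and 2 lower, beside 16.3% and 14.9% of all genes. Mean differences over the statins there were 0.55 for CDH1, 0.45 for EPCAM and 0.30 for KRT19. In MiaPaCa-2 at 2 µM, 1 was called higher with all 3 statins and 2 lower, beside 16.8% and 16.7% of all genes. Means over the statins there were 1.38 for EPCAM and 0.86 for KRT19. Of 7 fibroblast markers 2 were in the table, COL1A1 with a median of 144 FPKM in PANC-1 and 0.914 FPKM in MiaPaCa-2, and COL1A2 with 0.140 FPKM in PANC-1 and 142 FPKM in MiaPaCa-2. COL1A2 rose in MiaPaCa-2 with all 3 statins at 2 µM, by 1.16 to 1.21, and at 20 µM with fluvastatin by 1.70 and lovastatin by 1.22, but with simvastatin it changed by -1.04 (adjusted p at most 1.08e-05). COL1A1 changed in PANC-1 at 20 µM by -0.58 with fluvastatin, -0.33 with lovastatin and -1.07 with simvastatin (adjusted p at most 0.038). The summed level of both genes was 138 to 159 FPKM in the control, 146 to 166 FPKM at 2 µM and 54.6 to 122 FPKM at 20 µM in PANC-1, and 55.5 to 69.7 FPKM in the control, 124 to 151 FPKM at 2 µM and 26.0 to 217 FPKM at 20 µM in MiaPaCa-2. The part of these marker changes in the values of the 5 genes was not tested.

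GABARAPL1 (ENSG00000139112) encodes an ATG8-family protein that joins the autophagosome membrane, and it had its 3 highest group means in MiaPaCa-2 cells at 20 µM. Levels are in FPKM, fragments scaled by transcript length and by the mapped fragments of the library, a scale per length on which genes can be set side by side. In PANC-1 at 20 µM it reached 59.3, 55.9 and 50.0 FPKM with fluvastatin, 27.2, 24.5 and 34.0 FPKM with lovastatin, and 42.3, 32.6 and 28.7 FPKM with simvastatin, against 15.6, 13.9 and 16.6 FPKM in the control. Every 20 µM library of PANC-1 lay above every control library, and the ratios of mean FPKM to the control were 3.58 for fluvastatin, 1.85 for lovastatin and 2.24 for simvastatin. In MiaPaCa-2 the 20 µM values were 174, 152 and 145 FPKM with fluvastatin, 114 and 99.1 FPKM with lovastatin, and 205, 213 and 198 FPKM with simvastatin, against 9.02 and 13.8 FPKM in the control. These groups were 13.8, 9.33 and 18.0 times the control mean.

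At 2 µM GABARAPL1 overlapped the controls in PANC-1 and lay above them in MiaPaCa-2. PANC-1 means were 19.4 FPKM with fluvastatin, 14.4 FPKM with lovastatin and 17.2 FPKM with simvastatin, against 15.4 ± 1.37 FPKM in the control (SD, n = 3), and the libraries overlapped. MiaPaCa-2 libraries at 2 µM ran from 20.3 to 42.4 FPKM and all exceeded the 2 control libraries, with group means of 24.3, 25.3 and 29.7 FPKM for fluvastatin, lovastatin and simvastatin. Over the 14 groups, the 3 MiaPaCa-2 groups at 20 µM and PANC-1 with fluvastatin at 20 µM had ranges clear of one another and of all lower groups, while from the fifth place down each group overlapped the next.

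ATG9B (ENSG00000181652), a membrane-shuttling homologue of ATG9A, was near or below 1 FPKM without a statin and reached its highest levels with fluvastatin at 20 µM in both lines. PANC-1 with fluvastatin at 20 µM had 4.81, 6.20 and 4.76 FPKM, lovastatin 5.02, 3.73 and 2.85 FPKM and simvastatin 4.30, 3.23 and 0.921 FPKM, against 0.310, 1.12 and 0.116 FPKM in the control. The lowest simvastatin library, replicate 3, fell below 1 of the control libraries, so the groups overlapped there, and the log2(FPKM + 1) difference for simvastatin was 1.27 with that library and 1.70 without it. MiaPaCa-2 reached 51.8, 36.3 and 51.0 FPKM with fluvastatin at 20 µM, 35.9 and 31.2 FPKM with lovastatin and 8.14, 8.04 and 11.7 FPKM with simvastatin, against 1.03 FPKM in each control library. The ratios of the means in MiaPaCa-2 were 44.9 for fluvastatin, 32.5 for lovastatin and 8.98 for simvastatin. At 2 µM, ATG9B overlapped the control in both lines, at 0.0252 to 1.73 FPKM in PANC-1 and 0.502 to 4.02 FPKM in MiaPaCa-2. In the order of the 14 groups, MiaPaCa-2 with fluvastatin, lovastatin and simvastatin at 20 µM stood first with ranges clear of one another and of the rest, and each later group overlapped the next.

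The stretches just before the start sites of these genes are shown because GABARAPL1 and ATG9B had the most similar pattern of any pair of the 5 genes, with a Pearson correlation of 0.90 across the 14 group means. RefSeq promoters on GRCh38.p14 were matched for 4 of the 5 genes, with 1 start each for GABARAPL1 and WIPI1, 2 for ATG9B and 3 for SQSTM1. The 250 bases before each start were searched on both strands for CACGTG (the E-box bound by TFEB and others), GATGCAA (core of the ATF4 element), GCTGAGT (core of the antioxidant element), TGANTCA (the AP-1 element) and TGTTTAC (the forkhead element). Of these 4 genes, only ATG9B held any of them, GCTGAGT and TGANTCA in overlapping letters, at 47 to 39 bases before its first listed start. TGACGTC, part of the cyclic AMP response element, was added to the search after the sequences had been read, and it lies in GABARAPL1 on both strands, from 30 to 23 bases before the start. Of all 35116 promoters in the table, 6.34% held CACGTG, 2.05% GATGCAA, 3.98% GCTGAGT, 6.57% TGANTCA, 2.98% TGTTTAC and 3.12% TGACGTC in the same window. Capitals mark the matches below, 5′ to 3′ on the strand of the gene, GABARAPL1 at chr12:10212627-10212876 on the plus strand and ATG9B at chr7:151024500-151024749 on the minus strand.
GABARAPL1: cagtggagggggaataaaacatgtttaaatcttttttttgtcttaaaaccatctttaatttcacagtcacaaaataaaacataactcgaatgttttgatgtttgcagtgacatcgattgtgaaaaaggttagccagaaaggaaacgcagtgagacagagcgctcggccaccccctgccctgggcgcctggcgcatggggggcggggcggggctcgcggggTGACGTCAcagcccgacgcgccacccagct
ATG9B: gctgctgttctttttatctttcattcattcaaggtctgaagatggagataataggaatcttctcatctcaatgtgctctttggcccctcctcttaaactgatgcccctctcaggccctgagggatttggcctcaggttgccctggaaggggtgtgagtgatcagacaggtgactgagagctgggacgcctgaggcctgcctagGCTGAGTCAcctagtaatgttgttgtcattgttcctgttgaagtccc

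WIPI1 (ENSG00000070540) binds phosphatidylinositol 3-phosphate on the forming membrane, and at 20 µM it was higher with all 3 statins in both lines. PANC-1 had 46.3, 57.5 and 40.8 FPKM with fluvastatin at 20 µM, 35.1, 29.5 and 33.3 FPKM with lovastatin, and 38.3, 41.1 and 24.2 FPKM with simvastatin, against 8.70, 15.0 and 16.3 FPKM in the control. No 20 µM library overlapped the PANC-1 controls, and the ratios of means were 3.62, 2.45 and 2.59. MiaPaCa-2 had 50.6, 31.5 and 50.6 FPKM with fluvastatin, 57.8 and 57.6 FPKM with lovastatin, and 102, 128 and 104 FPKM with simvastatin, against 5.65 and 7.27 FPKM in the control. Simvastatin gave 17.2 times the control mean in MiaPaCa-2, lovastatin 8.94 times and fluvastatin 6.85 times. The 2 µM libraries overlapped the controls in both lines, and their mean difference from the control over the 3 statins was 0.20 in PANC-1 and -0.01 in MiaPaCa-2 on the log2(FPKM + 1) scale. In the order of the 14 groups, simvastatin and then lovastatin at 20 µM in MiaPaCa-2 stood clear at the top, the other 4 groups at 20 µM overlapped one another in sequence, and all 6 lay above the remaining 8 except for a single overlap between the lowest PANC-1 simvastatin library at 20 µM and the highest at 2 µM. The fold of a low value is understated on that scale, which applies most to ATG9B and LAMP3.

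SQSTM1 (ENSG00000161011), the p62 cargo receptor, was the most abundant of the 5 mRNAs in every group. In PANC-1 at 20 µM it measured 2852, 2608 and 2683 FPKM with fluvastatin, 1451, 1398 and 1381 FPKM with lovastatin, and 1433, 1415 and 1270 FPKM with simvastatin, against 617, 823 and 594 FPKM in the control. Fluvastatin thus gave 4.00 times the control mean, lovastatin 2.08 times and simvastatin 2.02 times, with no overlap between treated and control libraries. MiaPaCa-2 at 20 µM measured 771, 849 and 749 FPKM with fluvastatin, 1065 and 1109 FPKM with lovastatin, and 1719, 1719 and 1756 FPKM with simvastatin, against 257 and 235 FPKM in the control. The ratios of means there were 3.21 for fluvastatin, 4.42 for lovastatin and 7.04 for simvastatin. At 2 µM the PANC-1 libraries, from 605 to 760 FPKM, lay within the spread of their controls. MiaPaCa-2 libraries at 2 µM had 378 to 462 FPKM with fluvastatin, 387 to 430 FPKM with lovastatin and 467 to 505 FPKM with simvastatin, all above both control libraries. The order of the 14 groups began with fluvastatin in PANC-1 and simvastatin in MiaPaCa-2, both at 20 µM and clear of all others, while PANC-1 with lovastatin and with simvastatin at 20 µM overlapped in the next 2 places, and the MiaPaCa-2 control stood clear at the bottom.

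LAMP3 (ENSG00000078081), a lysosome-associated membrane protein described in mature dendritic cells and also in tumour cells, was the one gene of the 5 whose 2 µM libraries all lay above the PANC-1 controls. At 2 µM in PANC-1 it had 3.94, 4.69 and 4.82 FPKM with fluvastatin, 3.47, 4.05 and 3.37 FPKM with lovastatin, and 5.11, 2.62 and 4.69 FPKM with simvastatin, against 1.98, 0.999 and 1.05 FPKM in the control. The 20 µM libraries of PANC-1 reached 33.6, 33.1 and 29.8 FPKM with fluvastatin, 17.9, 15.7 and 19.4 FPKM with lovastatin, and 19.8, 22.7 and 19.9 FPKM with simvastatin. Neither dose overlapped the control or the other dose, and at 20 µM the means were 23.9, 13.2 and 15.5 times the control mean. In MiaPaCa-2 LAMP3 was far lower, at 1.60, 0.875 and 1.27 FPKM with fluvastatin at 20 µM, 2.72 and 2.87 FPKM with lovastatin, and 8.38, 7.13 and 8.55 FPKM with simvastatin, against 0.383 and 0.138 FPKM in the control. The 2 µM libraries of MiaPaCa-2 ran from 0.454 to 2.50 FPKM, above both controls and overlapping fluvastatin at 20 µM. The 14 groups began with PANC-1 at 20 µM under fluvastatin, simvastatin and lovastatin and then MiaPaCa-2 under simvastatin at 20 µM, all clear of one another, and ended with the MiaPaCa-2 control, clear of the rest. Of 8 leukocyte and dendritic cell markers only CD83 was in the table, at 5.34 to 5.66 FPKM in the control, 8.20 to 11.3 FPKM at 2 µM and 0.841 to 6.26 FPKM at 20 µM in PANC-1. At 2 µM in PANC-1, where LAMP3 was also higher, CD83 rose with fluvastatin by 0.80 (limma adjusted p = 0.0038), lovastatin by 0.81 (0.00439) and simvastatin by 0.66 (0.0163). At 20 µM it differed by -1.45 with fluvastatin (adjusted p = 1.49e-07), -0.47 with lovastatin (0.0158) and -0.03 with simvastatin (not called, 0.869). In MiaPaCa-2 CD83 had 4.21 to 4.65 FPKM in the control, 3.59 to 5.18 FPKM at 2 µM and 2.08 to 10.9 FPKM at 20 µM, with calls at 20 µM for lovastatin (0.88) and simvastatin (-0.63). The part of this marker in the LAMP3 values was not tested.

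**Figure D1:**
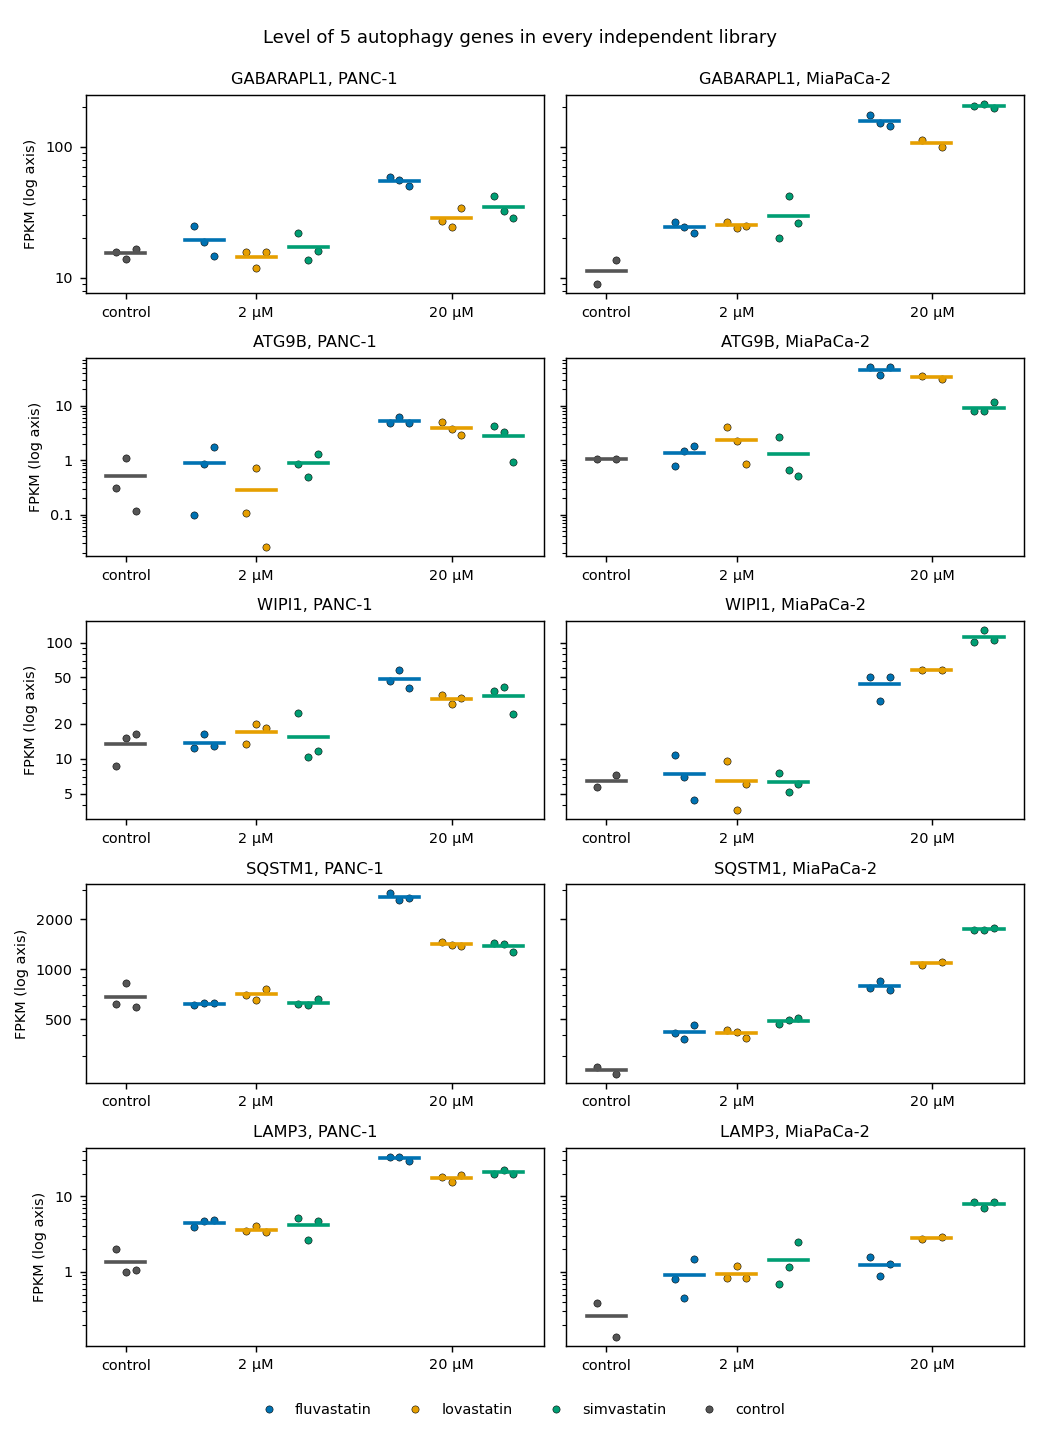
Level of each gene in FPKM (vertical log axis) in the control, 2 µM and 20 µM libraries of PANC-1 (left) and MiaPaCa-2 (right). Each point is an independent library, the bar is the group mean and the colour is the statin, and LAMP3 in PANC-1 is separate from its control at both doses whereas the other 4 genes in PANC-1 separate only at 20 µM, ATG9B incompletely.

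Read together, 1 of the 5 genes in PANC-1 had every 2 µM library above every control library, which was true of 4.92% of all tested genes. At 20 µM the count was 4 of 5 in PANC-1, beside 16.6% of all genes. In MiaPaCa-2, 3 of 5 genes (GABARAPL1, SQSTM1 and LAMP3) did so at 2 µM, beside 22.7% of genes, and 5 of 5 at 20 µM, beside 24.9%. Every 20 µM library exceeded every 2 µM library for 2 of 5 genes in PANC-1 (SQSTM1 and LAMP3), beside 13.2% of genes, and for 4 of 5 in MiaPaCa-2, where LAMP3 was the exception, beside 14.4%. The genes were chosen for these contrasts, so nothing is read from the counts. All 5 passed the filter on low values in both lines, but LAMP3 reached 1 FPKM in neither MiaPaCa-2 control library and ATG9B in 1 of 3 PANC-1 control libraries. Leaving out PANC-1 control 3 kept every 20 µM difference positive: for fluvastatin, ATG9B gave 1.90 without that library and 2.09 with it, and WIPI1 gave 1.97 without it and 1.81 with it.

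Whether the 3 statins acted alike was asked at matched doses, in 60 comparisons that set each pair of statins against each other for each gene, line and dose. The test was limma on log2(FPKM + 1), with p-values adjusted by Benjamini-Hochberg over all genes tested in a comparison and a call at an adjusted p under 0.05. At 2 µM, limma called 0 of 30 comparisons, and 2 had an unadjusted p under 0.05. The table as a whole held few such calls, at most 0.0116% of genes in a PANC-1 pair, and 0.562% for fluvastatin minus simvastatin, 0.293% for simvastatin minus lovastatin and 0% for fluvastatin minus lovastatin in MiaPaCa-2. The 2 µM differences ran from -0.29 to 0.58 in PANC-1 and from -0.58 to 0.27 in MiaPaCa-2, with 95% intervals reaching from -0.87 to 1.35 and from -1.30 to 0.86, so the data leave room for differences of that size. At 20 µM, 17 of 30 comparisons were called, 6 of 15 in PANC-1 and 11 of 15 in MiaPaCa-2. Of all tested genes, 30.7% to 47.5% were called in a PANC-1 pair at 20 µM and 23.5% to 56.2% in a MiaPaCa-2 pair.

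In PANC-1 at 20 µM, fluvastatin gave the highest mean of all 5 genes, and lovastatin and simvastatin could not be separated for any. SQSTM1 was higher with fluvastatin than with lovastatin by 0.94 (SE 0.092, limma adjusted p = 3.62e-07, 3 of 3 libraries above all lovastatin libraries) and than with simvastatin by 0.98 (SE 0.092, adjusted p = 2.25e-07). GABARAPL1 differed by 0.93 (SE 0.19, adjusted p = 0.00118) and 0.67 (SE 0.19, adjusted p = 0.00807), and LAMP3 by 0.83 (SE 0.18, adjusted p = 0.00154) and 0.61 (SE 0.18, adjusted p = 0.00925) in the same 2 pairs. Calls of this kind were common in the table, at 30.7% of genes for fluvastatin minus lovastatin, 47.5% for fluvastatin minus simvastatin and 38.5% for simvastatin minus lovastatin. ATG9B and WIPI1 passed in none of the PANC-1 pairs, with differences of fluvastatin from simvastatin of 0.83 (95% interval 0.056 to 1.60, adjusted p = 0.0721) and 0.49 (-0.092 to 1.08, adjusted p = 0.156). The simvastatin and lovastatin lactones, which differ by the methyl group, gave differences from -0.45 for ATG9B (-1.22 to 0.32) to 0.26 for GABARAPL1 (-0.14 to 0.67), and for SQSTM1 the interval was -0.23 to 0.15. Single simvastatin libraries moved several of these values. Without simvastatin 20 µM replicate 3, fluvastatin minus simvastatin was 0.39 for ATG9B (adjusted p = 0.377) and 0.26 for WIPI1 (0.492), and it stayed called at 0.55 for GABARAPL1 (0.0414), 0.58 for LAMP3 (0.0273) and 0.93 for SQSTM1 (2.49e-06). Simvastatin minus lovastatin was then -0.02 for ATG9B, 0.28 for WIPI1 and 0.38 for GABARAPL1, none of them called. Without simvastatin replicate 1 the ATG9B differences were 1.13 from fluvastatin, which passed (adjusted p = 0.0269), and -0.75 from lovastatin, and GABARAPL1 gave 0.11 for simvastatin minus lovastatin.

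In MiaPaCa-2 at 20 µM the order of the means was another, except for ATG9B. Simvastatin gave the highest mean of GABARAPL1, WIPI1, SQSTM1 and LAMP3, and the lowest of ATG9B. The differences of simvastatin from lovastatin were called for all 5 genes, beside 37.3% of the table: 0.95 for GABARAPL1 (SE 0.22, limma adjusted p = 0.00269), 0.93 for WIPI1 (SE 0.32, 0.0331), 0.67 for SQSTM1 (SE 0.074, 3.59e-06), 1.25 for LAMP3 (SE 0.26, 0.0016) and -1.77 for ATG9B (SE 0.38, 0.00184). The WIPI1 call was lost with a pseudocount of 0.1 (adjusted p = 0.0543). It was also lost in 4 of the 5 fits that left out 1 library of that pair, some of which left 1 lovastatin library. Fluvastatin differed from simvastatin by -2.02 for LAMP3 (SE 0.24, adjusted p = 2.52e-06), -1.34 for WIPI1 (SE 0.29, 0.000947) and -1.13 for SQSTM1 (SE 0.066, 7.19e-10), and by 2.21 for ATG9B (SE 0.34, 4.61e-05), beside 56.2% of the table. GABARAPL1 did not pass in that pair (-0.39, interval -0.80 to 0.016, adjusted p = 0.0943), although it did in a fit of the 2 groups alone (0.0042). Between fluvastatin and lovastatin, 23.5% of the table was called. Among the 5 genes SQSTM1 was lower with fluvastatin by -0.46 (SE 0.074, limma adjusted p = 0.000263) and LAMP3 by -0.77 (SE 0.26, adjusted p = 0.0441). This LAMP3 call was lost in 4 of the 5 fits that left out 1 library of that pair, some of which left 1 lovastatin library. ATG9B gave 0.44 in that pair (-0.37 to 1.25), GABARAPL1 0.56 (0.099 to 1.01) and WIPI1 -0.41 (-1.09 to 0.28), none of them called.

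**Figure D2:**
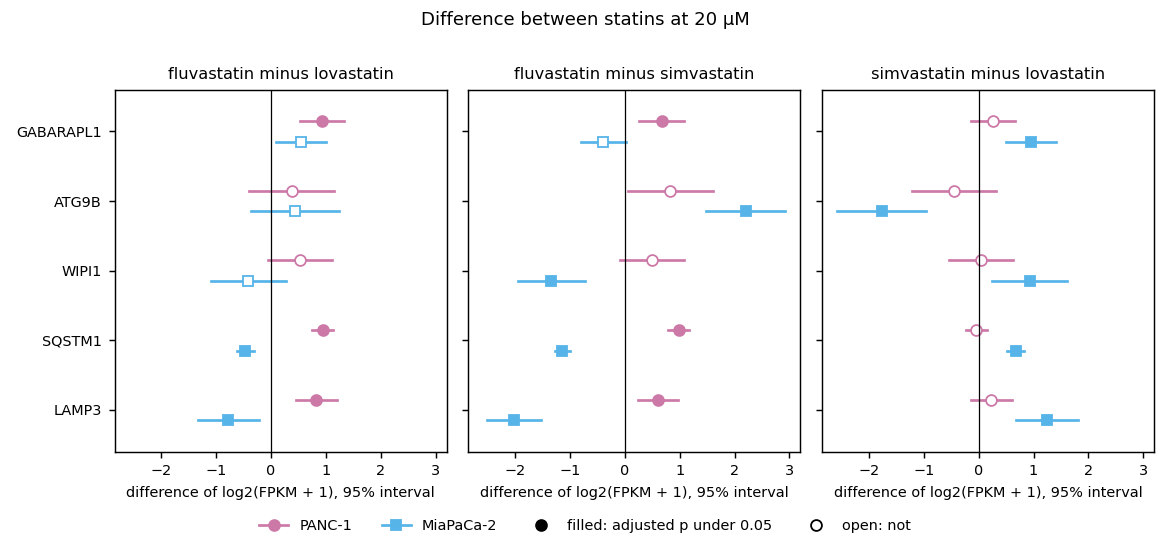
Difference between 2 statins at 20 µM (horizontal axis, log2(FPKM + 1) with 95% interval) for each gene, with PANC-1 as circles and MiaPaCa-2 as squares. Filled marks have an adjusted p under 0.05, and in the pair of fluvastatin and simvastatin SQSTM1 lies at 0.98 in PANC-1 and at -1.13 in MiaPaCa-2.

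For GABARAPL1, WIPI1, SQSTM1 and LAMP3 the statin with the highest mean at 20 µM therefore was not the same in both lines. Only for SQSTM1 and LAMP3 was that statin called above both others in each line. The ATG9B means kept the order fluvastatin, lovastatin, simvastatin in both. None of its PANC-1 pairs was called, and fluvastatin minus lovastatin was not called in MiaPaCa-2. Without PANC-1 simvastatin 20 µM replicate 3, simvastatin minus lovastatin was -0.02 in PANC-1. Whether the size of a statin difference itself differed between the lines was tested with an interaction term added after the data had been seen. For fluvastatin minus simvastatin at 20 µM, the difference between the lines was called for all 5 genes in a table where 51.1% of genes were called. SQSTM1 was the clearest, at 0.98 in PANC-1 and -1.13 in MiaPaCa-2, a difference of 2.12 (SE 0.12, limma adjusted p = 4.53e-15, joint fit). For ATG9B the fluvastatin mean was above the simvastatin mean in both lines, by 0.83 in PANC-1 and 2.21 in MiaPaCa-2. Its line difference had the opposite sign, at -1.38 (SE 0.52, limma adjusted p = 0.028). This call was lost in 8 of the 17 fits that left out a 20 µM library and with a pseudocount of 0.1. For fluvastatin minus lovastatin and for simvastatin minus lovastatin, SQSTM1 and LAMP3 were called, beside 19% and 39% of genes, and the second LAMP3 call was lost with a pseudocount of 0.1 (adjusted p = 0.0585). At 2 µM limma called the interaction for 0 of the 5 genes, with 2 of 15 tests at an unadjusted p under 0.05, beside 0.0114%, 0.0458% and 0% of all genes for fluvastatin minus lovastatin, fluvastatin minus simvastatin and simvastatin minus lovastatin.

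Between the control groups of the lines, 3 of the 5 genes were called, in a joint fit that called 64.6% of all genes and 28.7% as higher in PANC-1. The count is near the share of all genes, so nothing is read from it. SQSTM1 averaged 678 ± 126 FPKM in the PANC-1 control and 246 ± 15.1 FPKM in the MiaPaCa-2 control (SD, n = 3 and n = 2), a log2 difference of 1.44 (SE 0.093, limma adjusted p = 2.09e-14). LAMP3 averaged 1.34 ± 0.555 FPKM in PANC-1 and 0.261 ± 0.173 FPKM in MiaPaCa-2 (0.88, SE 0.23, adjusted p = 0.00173). At these control levels LAMP3 passed the filter on low values only through libraries with a statin, so nothing is read from its call. WIPI1 averaged 13.3 ± 4.06 FPKM in PANC-1 and 6.46 ± 1.15 FPKM in MiaPaCa-2 (0.91, SE 0.33, adjusted p = 0.0175), but the call was lost without MiaPaCa-2 control 1 (adjusted p = 0.134), PANC-1 control 2 (0.0582) or PANC-1 control 3 (0.0704). GABARAPL1, at 15.4 ± 1.37 FPKM in PANC-1 and 11.4 ± 3.36 FPKM in MiaPaCa-2, gave 0.43 (95% interval -0.030 to 0.88, adjusted p = 0.0949), and without MiaPaCa-2 control 2 it passed at 0.71 (adjusted p = 0.0298). ATG9B was at 0.514 ± 0.530 FPKM in PANC-1 and 1.03 ± 0.00211 FPKM in MiaPaCa-2 (-0.48, interval -1.32 to 0.36, adjusted p = 0.313).

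The 5 genes fell along a range of patterns rather than a single one. Across the 14 group means of log2(FPKM + 1), correlations between pairs of them ran from 0.12 for ATG9B with LAMP3 to 0.90 for GABARAPL1 with ATG9B, with 0.89 for SQSTM1 with LAMP3 and 0.87 for WIPI1 with SQSTM1. These points share the 2 lines and the dose, so the values only describe the shape. The genes of the table most like each member were KLF6 (r = 0.97), TBC1D17 and MGAT4B (0.96 each) for GABARAPL1, and ATP2B4, NRBF2 and PRRC1 (0.96 each) for ATG9B. PHLDA3 (0.97), SMG5 and YWHAH (0.96 each) were nearest to WIPI1, PNPLA8 (0.98), RHOF and TRIM4 (0.96 each) to SQSTM1, and CEBPG, HMGCS1 and FAM214B (0.97 each) to LAMP3. Between 0.711% and 0.917% of the genes of the table had a correlation over 0.9 with a given member. NRBF2, a partner of the class III PI3 kinase complex of autophagy, and HMGCS1, an enzyme of the mevalonate pathway, are among these 15 genes.

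Overlapping genes bear on what the counts hold, since the sources used here do not say whether fragments were counted by strand, and reads from opposite strands cannot then be told apart. In GENCODE release 29, MRNIP, listed under its older symbol C5orf45, shares 39.8% of the exonic bases of SQSTM1 from the opposite strand, ARSG 28.5% of those of WIPI1 and NOS3 12.6% of those of ATG9B. In PANC-1 at 20 µM, C5orf45 had 10.5 FPKM with fluvastatin, 10.5 FPKM with lovastatin and 11.1 FPKM with simvastatin, against 16.6 FPKM in the control, and was called in neither direction there. It rose in MiaPaCa-2 at 20 µM by 0.78 to 1.75 (limma adjusted p from 2.53e-06 to 0.00427), to at most 54.4 FPKM, with its lowest mean there for simvastatin. At 2 µM in MiaPaCa-2, where SQSTM1 was also higher, C5orf45 rose to 35.0, 48.7 and 41.7 FPKM with fluvastatin, lovastatin and simvastatin, against 15.5 FPKM in the control (1.12, 1.60 and 1.34, adjusted p at most 0.000581), and its part in the SQSTM1 values was not tested. ARSG, looked up after the overlap was seen, had means of 1.23 to 3.73 FPKM over the 14 groups and was called in none of the 12 comparisons with the control (lowest adjusted p = 0.051). NOS3 is not analysed here. GABARAPL3, a near copy of GABARAPL1 in which 11.1% of all stretches of 50 bases also occur in GABARAPL1, rose to 8.57 FPKM in PANC-1 with fluvastatin at 20 µM, against 1.08 FPKM in the control (2.33, adjusted p = 0.00204), and to 12.3 to 21.7 FPKM in MiaPaCa-2, against 1.87 FPKM. Only 0.979% of the stretches of GABARAPL1 occur in GABARAPL3.

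Other genes of the pathway were measured alongside. The 8 lists of other autophagy machinery held 66 symbols, among them older and newer names of the same gene, and 46 were in the table. In PANC-1, 20 of these 46 rose with all 3 statins at 20 µM while 0 fell, beside 16.3% and 14.9% of all genes (limma, adjusted p under 0.05). Without PANC-1 control 3 the number that rose there was 17. In MiaPaCa-2, where the control had n = 2, 25 of the 43 tested rose with all 3 statins at 20 µM and 0 fell, beside 18.6% and 21.1%. Their median difference from the control at 20 µM was 0.59, 0.36 and 0.35 in PANC-1 and 0.68, 0.58 and 0.76 in MiaPaCa-2 for fluvastatin, lovastatin and simvastatin, whereas the medians of all tested genes lay between -0.01 and 0.03. At 2 µM, 1 of 46 rose with all 3 statins in PANC-1 and 0 fell, beside 1.33% and 0.325%, and 13 of 43 rose and 1 fell in MiaPaCa-2, beside 16.8% and 16.7%. Each comparison shares its control libraries with those that chose the 5 genes.

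Next to GABARAPL1 in the ATG8 family, 3 of 5 relatives rose with all 3 statins at 20 µM in PANC-1 and 4 of 5 in MiaPaCa-2, beside 16.3% and 18.6% of all genes. MAP1LC3A reached 52.7, 45.6 and 60.2 FPKM in PANC-1 with fluvastatin, lovastatin and simvastatin, against 11.4 FPKM in the control (differences 2.13, 1.92 and 2.31, adjusted p at most 7.47e-09), and 136, 112 and 96.0 FPKM in MiaPaCa-2, against 16.0 FPKM. MAP1LC3B, the LC3 protein most used as a marker of autophagosomes, reached 141, 91.0 and 97.3 FPKM in PANC-1, against 27.3 FPKM, and 102, 108 and 126 FPKM in MiaPaCa-2, against 31.2 FPKM. GABARAPL2 was not called with every statin in either line, with differences of 0.14 to 0.38 in PANC-1 and -0.15 to 0.61 in MiaPaCa-2 at 20 µM. The reads of MAP1LC3B and its near copy MAP1LC3B2 may be split between them, so their values are uncertain.

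WIPI2, a relative of WIPI1, had 56.3, 51.2 and 47.6 FPKM in PANC-1 at 20 µM, against 41.7 FPKM in the control, with a call for fluvastatin only (0.42, adjusted p = 0.00434). WIPI2 rose by 0.43 to 0.45 in MiaPaCa-2 with each statin. WDR45, also a member of this family, rose by 1.40 to 1.72 in PANC-1 and by 1.40 to 2.08 in MiaPaCa-2. Its relative WDR45B was lower in MiaPaCa-2 at 20 µM with fluvastatin (-0.41, limma adjusted p = 0.00169). It was not called there with lovastatin (-0.10) or simvastatin (0.19). In PANC-1 at 20 µM WDR45B differed by 0.11 to 0.19, with a call for fluvastatin only (adjusted p = 0.0174). Near LAMP3, the broadly expressed LAMP1 rose by 0.17 to 0.33 in PANC-1 and was not called in MiaPaCa-2 (-0.12 to 0.07). LAMP2 differed from the PANC-1 control by 0.45 with fluvastatin, 0.21 with lovastatin and -0.13 with simvastatin, the last not called (adjusted p = 0.0709), and rose in MiaPaCa-2 by 0.35 to 0.54.

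Cargo receptors other than SQSTM1 rose with all 3 statins at 20 µM in 8 of 11 cases in PANC-1 and in 9 of 9 in MiaPaCa-2, beside 16.3% and 18.6% of all genes. OPTN, a receptor for ubiquitinated mitochondria and bacteria, reached 164, 148 and 194 FPKM in MiaPaCa-2, against 17.7 FPKM in the control (3.16, 3.01 and 3.40, adjusted p at most 2.57e-11), and 48.0, 33.9 and 41.8 FPKM in PANC-1, against 20.9 FPKM. A pair of mitophagy receptors had higher levels at 2 µM than at 20 µM, BNIP3 in PANC-1 and BNIP3L in MiaPaCa-2, although the doses were not tested against each other. BNIP3 rose to 63.1, 45.9 and 54.0 FPKM at 2 µM in PANC-1, against 15.5 FPKM in the control, and was the one gene of the machinery lists called there with all 3 statins, while at 20 µM it had 22.2, 23.2 and 28.8 FPKM. BNIP3L rose to 383, 417 and 399 FPKM at 2 µM in MiaPaCa-2, against 55.7 FPKM, and to 66.3, 69.3 and 74.8 FPKM at 20 µM. The lipid kinase gene PIK3C3 rose by 1.44 to 1.53 at 2 µM in MiaPaCa-2, and ATG3, an enzyme that conjugates ATG8 proteins, fell by 0.73 to 0.78. PLEKHM1, an adaptor for fusion with lysosomes, rose to 7.54, 5.52 and 3.02 FPKM at 20 µM in PANC-1, against 0.510 FPKM. At that control level it passed the filter on low values only through libraries with a statin, so nothing is read from its rise. It counts among the machinery genes that rose in PANC-1 with all 3 statins, and it was not tested in MiaPaCa-2.

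**Figure D3:**
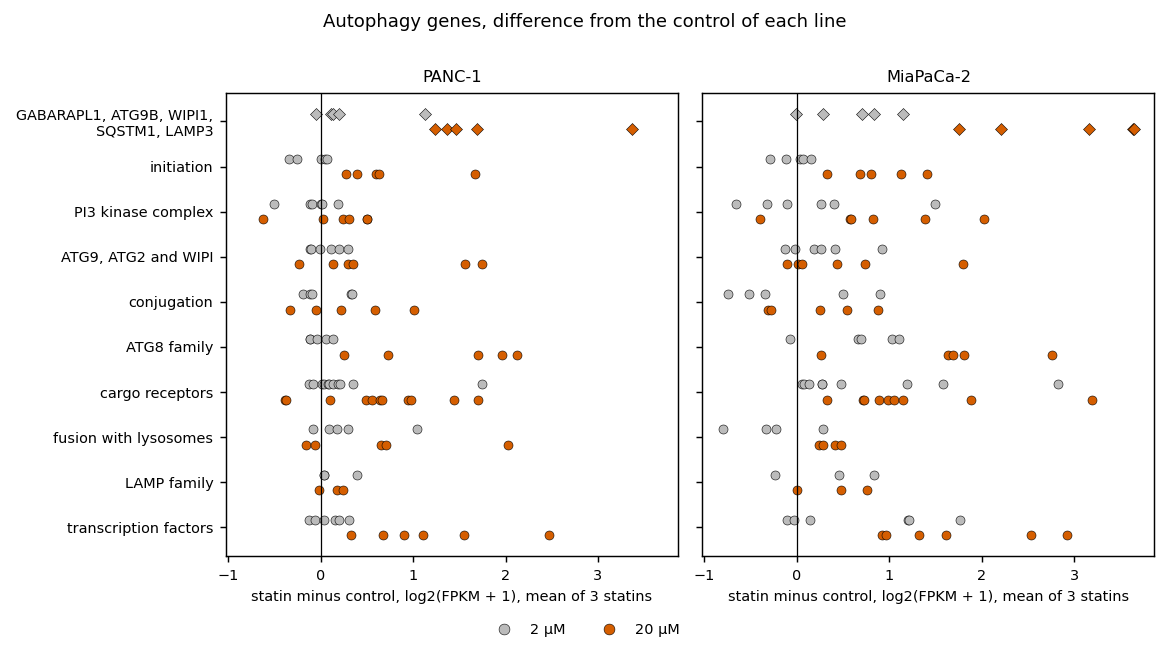
Mean difference from the control over the 3 statins on the log2(FPKM + 1) scale (horizontal axis) for GABARAPL1, ATG9B, WIPI1, SQSTM1 and LAMP3 (diamonds, top row) and for each other autophagy gene by list (circles), with PANC-1 left and MiaPaCa-2 right. At 20 µM (orange) the 5 genes lie between 1.24 and 3.37 in PANC-1 and between 1.76 and 3.64 in MiaPaCa-2, and at 2 µM (grey) most PANC-1 points lie near 0.

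Transcription factors known to act on autophagy genes were measured for 6 of 9 listed. Of these, 5 of 6 rose with all 3 statins at 20 µM in PANC-1 and 6 of 6 in MiaPaCa-2, beside 16.3% and 18.6% of all genes. ATF4, the stress-response factor, reached 315, 218 and 263 FPKM in PANC-1 with fluvastatin, lovastatin and simvastatin, against 121 FPKM in the control (1.38, 0.85 and 1.11, adjusted p at most 2.53e-09), and 186, 284 and 528 FPKM in MiaPaCa-2, against 121 FPKM (0.62, 1.23 and 2.12, at most 8.28e-09). DDIT3, also called CHOP, had its highest mean with fluvastatin in PANC-1 (285 FPKM, against 38.2 FPKM) and with simvastatin in MiaPaCa-2 (167 FPKM, against 14.8 FPKM). NFE2L2, which encodes NRF2, differed by 0.80, 0.25 and -0.07 in PANC-1, where simvastatin was not called, and by 0.44, 1.00 and 1.33 in MiaPaCa-2. The AP-1 subunit gene JUN rose by 1.39 to 1.84 in PANC-1 and 2.38 to 2.72 in MiaPaCa-2. At 2 µM, DDIT3 already rose by 1.69 to 1.88 in MiaPaCa-2 and was not called in PANC-1 (-0.16 to -0.05). The highest 20 µM mean of SQSTM1, GABARAPL1, WIPI1 and LAMP3 came with the statin that gave the highest mean of ATF4, fluvastatin in PANC-1 and simvastatin in MiaPaCa-2, while ATG9B had its highest mean with fluvastatin in both. This order was found in 1277 of the 8738 genes, 14.6% of the table, and whether it ties the 4 genes to ATF4 was not tested. TFEB is not analysed here.

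**Figure D4:**
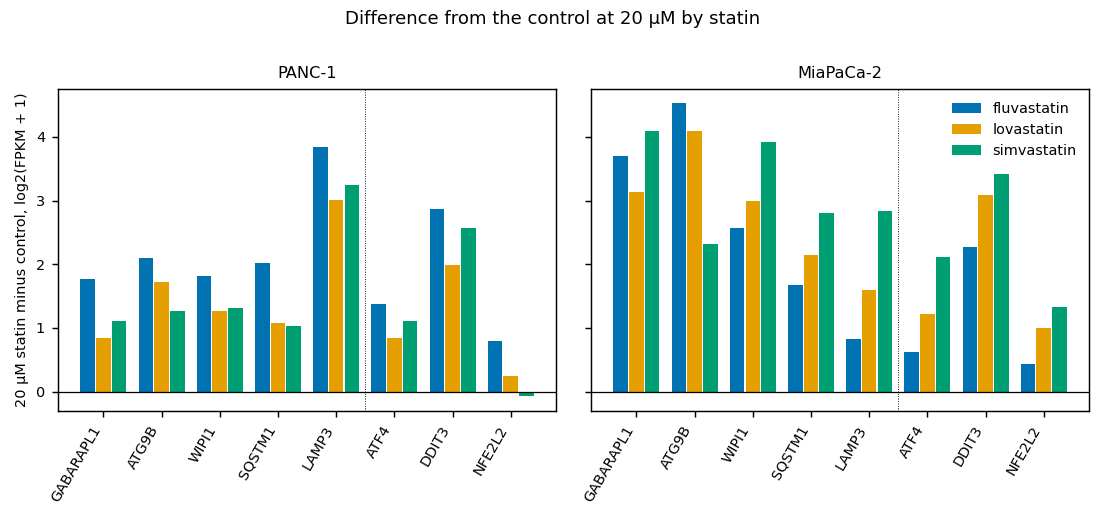
Difference from the control of each line at 20 µM (vertical axis, log2(FPKM + 1)) by statin for the 5 genes and, right of the dotted line, for ATF4, DDIT3 and NFE2L2, with PANC-1 left and MiaPaCa-2 right. Fluvastatin is the tallest bar for 8 of 8 genes in PANC-1, and simvastatin for 7 of 8 in MiaPaCa-2, where ATG9B is the exception.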

How the data were processed

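Messenger RNA from 42 libraries of PANC-1 and MiaPaCa-2 was captured on poly-T beads and sequenced in pairs, per the labels' protocols. TopHat2 2.0.13, Cufflinks 1.1, Cuffdiff and the hg19 build were used, per the submitters' processing notes. The authors deposited log2 values of FPKM for 8738 genes, which were read as log2(FPKM + 1) because 0 of them lay at or below 0. The table holds no counts, so depth is unknown, and the sources used here do not say how its genes were picked. Of its columns, 0 were unmatched to a sample.

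The members and gene lists were chosen with earlier results of these data known. Genes with at least 1 FPKM in at least 3 independent libraries of a line were fitted in limma 3.58.1 (R 4.3.3) with 1 mean per group and a trended, robust variance, 8615 in PANC-1, 8534 in MiaPaCa-2 and 8738 jointly, and the code was checked on simulated data. Groups came from the sample titles, and a call is an adjusted p under 0.05, two-sided. Replicate numbers did not pair samples: correlations of same-numbered deviations exceeded 0.1 in 2 of 63 pairs in PANC-1 and 0 of 52 in MiaPaCa-2.

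Genes named beyond the 5 were, per line and dose, up to 4 autophagy genes per direction with the largest mean difference among those called for all 3 statins, the 3 most similar genes per member, set transcription factors and overlapping genes. GABARAPL2, MAP1LC3B2, WIPI2, WDR45, WDR45B, LAMP1 and LAMP2, as relatives of the 5 genes, and ARSG, which overlaps WIPI1, were added after their values or overlaps were seen. The fits were repeated with quantile normalization, with no filter, with a pseudocount of 0.1, with a replicate block, with 2 groups alone, with all 42 columns and without each library in turn.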

Additional observations from a re-analysis of the deposited data

Results flagged for a closer look

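Each result here is a difference between a pair of statins at 20 µM that was itself different between the lines, as PANC-1 minus MiaPaCa-2 in a joint limma fit added after the data were seen. For fluvastatin minus simvastatin the differences were 1.07 for GABARAPL1 (adjusted p = 0.00244), -1.38 for ATG9B (0.028), 1.83 for WIPI1 (0.000584), 2.12 for SQSTM1 (4.53e-15) and 2.62 for LAMP3 (1.87e-08). For fluvastatin minus lovastatin they were 1.41 for SQSTM1 (adjusted p = 6.34e-10) and 1.60 for LAMP3 (0.000413). For simvastatin minus lovastatin they were -0.71 for SQSTM1 (adjusted p = 4.61e-05) and -1.02 for LAMP3 (0.0111). Every library of each group fell on its side for SQSTM1 in the pair of fluvastatin and simvastatin, 3 above 3 in PANC-1 and 3 below 3 in MiaPaCa-2. Across the table, 51.1%, 19% and 39% of genes were called in these 3 differences.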

How the results depend on the processing

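The 17 calls between statins at 20 µM numbered 6 in PANC-1 and 11 in MiaPaCa-2, and 6 to 7 and 9 to 13 when single libraries were left out. With the replicate number as a block they were 6 and 11, and the block changed no other call count by over 1.5 times. Between statins at 2 µM, 60 genes of the whole table were called in MiaPaCa-2, but 3 in fits of the 2 compared groups alone, 171 with all 42 columns and 17 to 94 with single libraries left out. In PANC-1 they were 2, but 10 in fits of 2 groups alone and 1 to 18 with single libraries left out, the 18 without PANC-1 control 3. Among other autophagy genes at 2 µM, the 1 that fell in MiaPaCa-2 became 2 with all 42 columns and 0 to 1 with libraries left out, and the 1 that rose in PANC-1 became 2 with a pseudocount of 0.1 and 1 to 2 with libraries left out.

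The LAMP3 call between fluvastatin and lovastatin in MiaPaCa-2 was lost with a pseudocount of 0.1 (limma adjusted p = 0.0983) and quantile normalization (0.0626). GABARAPL1 passed in that pair in a fit of the 2 groups alone (0.0225) and with all 42 columns (0.0295), and between fluvastatin and simvastatin with the 2 groups alone (0.0042), and WIPI1 passed between fluvastatin and lovastatin in PANC-1 with the 2 groups alone (0.0226). Small uncalled differences changed sign: simvastatin minus lovastatin in PANC-1 ranged over libraries left out from -0.093 to 0.276 for WIPI1 and from -0.072 to 0.014 for SQSTM1, and the line difference of ATG9B between fluvastatin and lovastatin from -0.23 to 0.10, with 0.0083 at a pseudocount of 0.1. The causes were not tested. Depth is unknown, and groups of 2 or 3 libraries limit the precision, most for ATG9B and LAMP3 near 1 FPKM.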
